A study of Macaca fascicularis with 24 samples.

Results

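The Notch receptors NOTCH1 to NOTCH4, the ligands JAG1 and JAG2 and the target genes HES1, HEY1 and HEYL were followed with age in the thoracic aorta of the cynomolgus macaque (Macaca fascicularis). Members were all probe sets (groups of short probes that read 1 transcript) whose gene symbol in the platform annotation was one of these 9 names. The rule found 9 of 11963 named genes and 20 of 22215 non-control probe sets: 8 for receptors, 6 for ligands and 6 for targets.

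The study measured aortic RNA on 24 single-colour arrays, 6 in each of 4 groups, and no treatment, diet or genotype is given in the labels. The old males had a mean age of 20.0 years and the young males one of 6.6 years. The old females had a mean age of 21.2 years and the young females one of 7.2 years. No age is given for a single animal, and nothing in the labels says that replicates of a group came from separate animals, so all p-values measure the spread between samples. The array carries probes for human transcripts that were read here with monkey RNA, so a mismatch can dim the signal of some probe sets throughout, and levels are compared only within a probe set.

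Notch signalling passes between cells that touch. A ligand of the Jagged or Delta family on one cell binds a Notch receptor on its neighbour, the receptor is cut by ADAM proteases and then by gamma-secretase, and the freed intracellular part moves to the nucleus. There it binds the DNA-binding protein RBPJ with a Mastermind co-activator and switches on genes of the HES and HEY families, which encode transcriptional repressors. In arteries, NOTCH3 is known as the receptor of smooth muscle, NOTCH4 as one of endothelium and JAG1 as a ligand that both cell types display, and the pathway is known for its part in arterial identity and in the contractile state of smooth muscle.

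Old female arrays 1 and 4 held nearly the same values, as did young male arrays 3 and 4 and young female arrays 3 and 4, and each of these 3 pairs was averaged, which left 21 samples: 6 of old males, 5 of young males, 5 of old females and 5 of young females. Another 6 samples stood apart from the rest, namely old males 2 and 4, old females 2 and 6, young male 1 and young female 3, and are called divergent below. The median correlation of their arrays with all other arrays was 0.809 to 0.828, against 0.878 to 0.935 for the remaining arrays, a limit of 0.85 that was chosen with these values known. The actin control, read at its 3′ and its 5′ end to gauge RNA breakdown, gave a 3′ over 5′ log2 ratio of 0.785 to 1.73 in the divergent arrays and of -0.250 to 1.15 in the others. The spiked-in hybridisation controls did not overlap, with a mean log2 intensity of 12.84 to 14.32 in the divergent arrays and of 11.19 to 12.13 in the others. Of the smooth muscle markers, 11 of the 11 on the array lay above the filter on dim probe sets, which 11108 of 22215 probe sets passed. So did 13 of 14 endothelial and 8 of 9 fibroblast markers. The sum of the normalised intensities of the smooth muscle markers was 59923 to 175810 in the divergent samples and 133623 to 232784 in the other 15. It was lowest in old female 6. In bulk tissue, fewer cells of a type and less RNA per cell cannot be told apart.

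No member differed with age past the threshold in either sex. Of the 20 probe sets, 14 from 8 genes were bright enough to be tested in limma, a linear model fitted across all probe sets, and 6 lay below the filter, among them the only probe set of HEYL. In males 0 of 14 had an adjusted p below 0.05 and 0 of 14 an unadjusted one, while over all 11108 tested probe sets 0.018% passed the adjusted threshold and 3.36% had an unadjusted limma p below 0.05. In females 0 of 14 passed and 1 of 14, a JAG1 probe set, had an unadjusted p below 0.05, against 0% and 2.84% of all probe sets. The mean old-minus-young difference was above 0 for 8 and below 0 for 6 members in males (47.6% of all probe sets were above 0), with a median of 0.02 on the log2 scale and a range of -0.74 to 0.44. In females it was above 0 for 7 and below 0 for 7 (45.5% above 0 overall), with a median of -0.01 and a range of -0.78 to 0.37. Over all tested probe sets the medians were -0.02 in males and -0.03 in females. The old and the young samples overlapped for each of the 14 in both sexes, whereas 0.666% of all probe sets did not overlap in males and 0.342% in females.

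**Figure D1:**
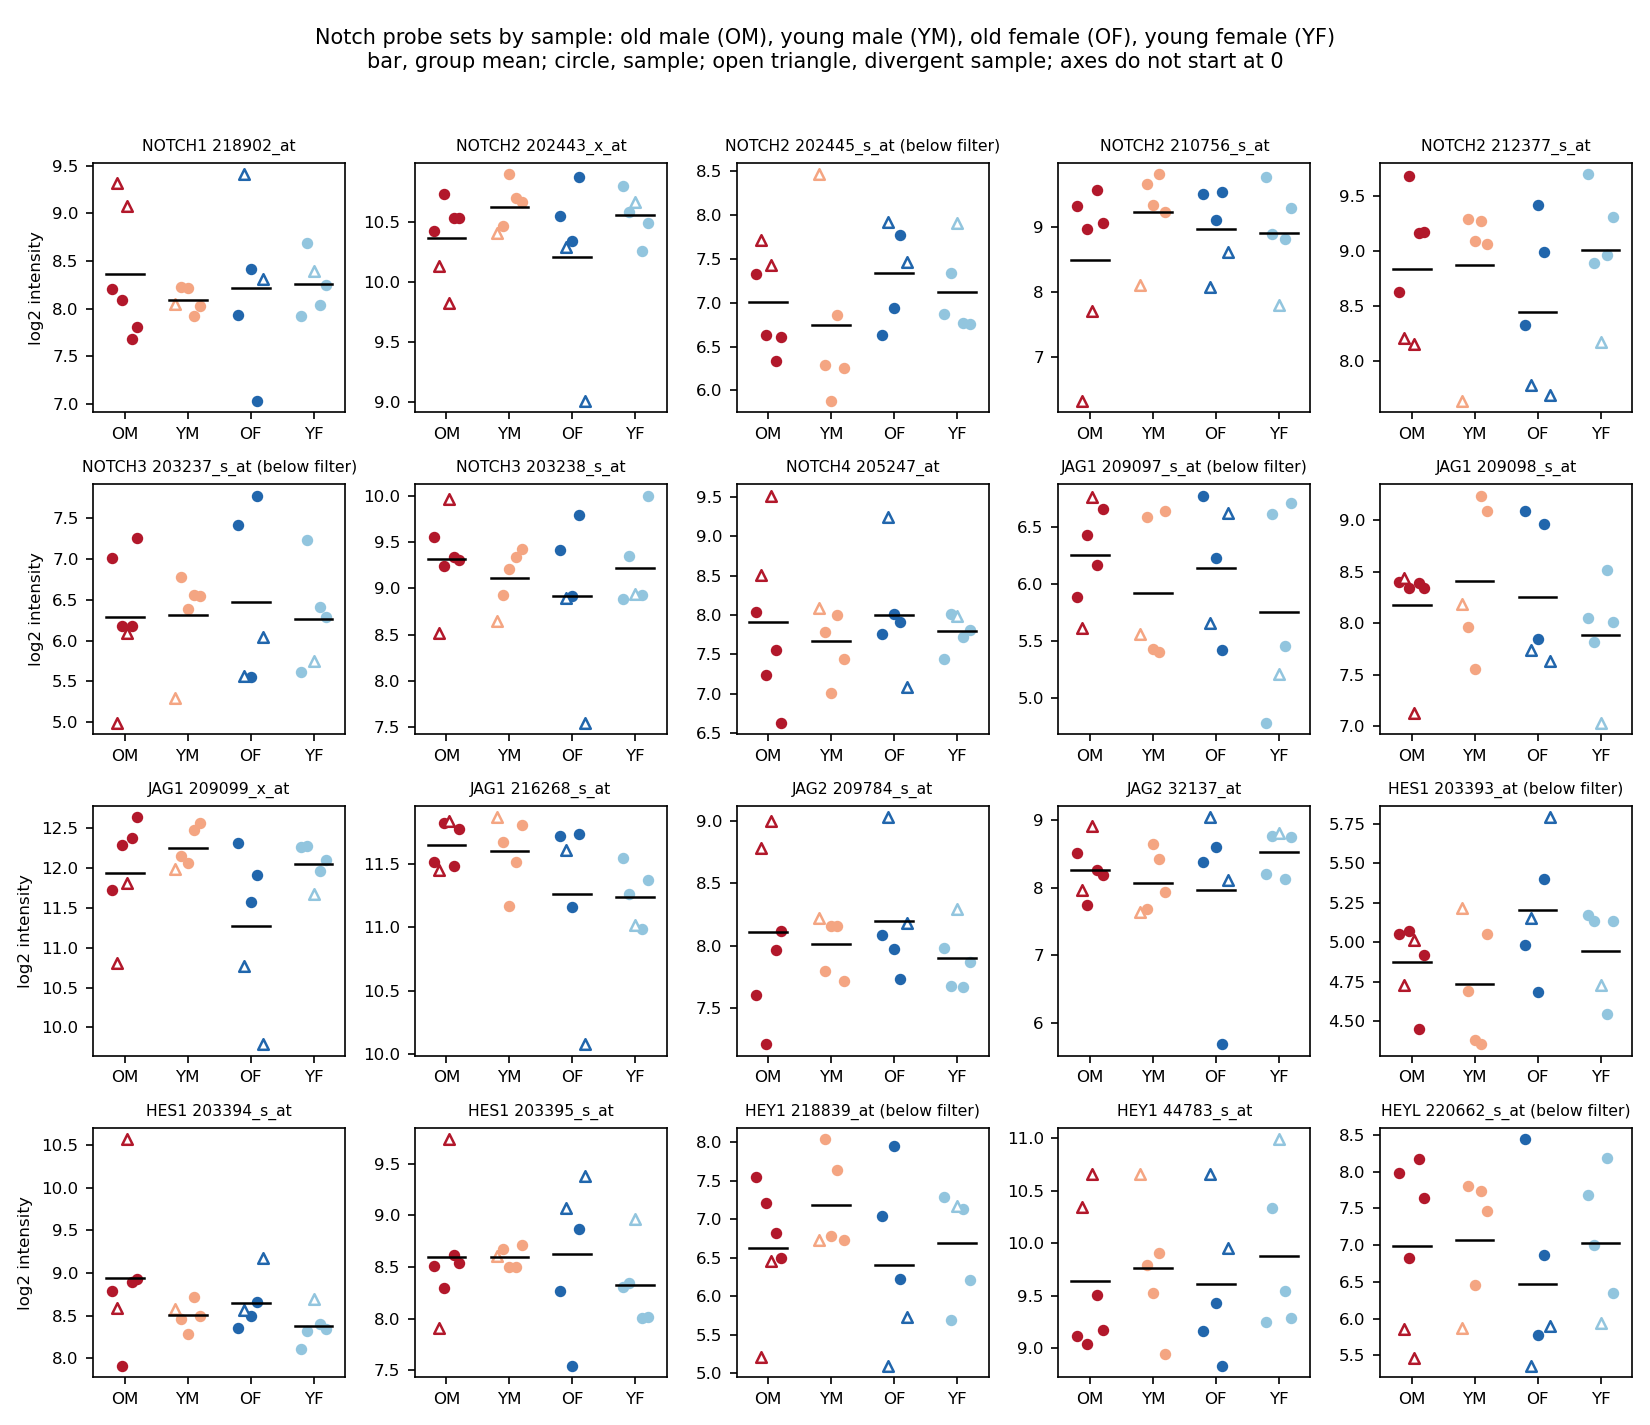
Normalised log2 intensity of each of the 20 Notch probe sets (1 panel each) by sample, in old males, young males, old females and young females from left to right. Each point is 1 of the 21 samples, open triangles are the 6 divergent samples and bars are group means. The old and young points of the same sex overlap in each of the 14 tested panels.

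Standard errors of the age difference ran from 0.235 to 0.490 in males and from 0.246 to 0.512 in females. The adjusted limma p was 0.9999 for each member in males and 0.9996 in females.

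Among the receptors, NOTCH3, the receptor of arterial smooth muscle, did not differ with age past the threshold in either sex. On its tested probe set (203238_s_at) old males read 8.51 at the lowest, 9.33 at the median and 9.97 at the highest (log2 intensity), and young males read 8.65, 8.92, 9.21, 9.34 and 9.43. All 5 young male values lay within the range of the old males. The old males averaged 9.32 ± 0.48 (SD, n = 6) and the young males 9.11 ± 0.32 (n = 5), a log2 difference of 0.21 ± 0.32 (SE, 95% interval -0.46 to 0.88). Old females read 9.42, 8.89, 8.92, 9.80 and 7.55, and young females 8.89, 9.35, 8.94, 8.93 and 10.0001. The lowest of all 21 values was that of old female 6, the sample with the lowest smooth muscle sum. The female log2 difference was -0.31 ± 0.34 (95% interval -1.01 to 0.39) with all samples and 0.09 without the divergent ones, so its sign rested on them. The other NOTCH3 probe set (203237_s_at) lay below the filter and averaged 6.28 ± 0.80 in old and 6.31 ± 0.58 in young males, and 6.47 ± 1.05 in old and 6.26 ± 0.64 in young females.

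NOTCH1, a receptor with roles in endothelium and in the developing heart valves, varied more among the old samples when all samples were counted. Without the divergent samples the SD was 0.24 in old and 0.15 in young males. In females it was then 0.70 in old and 0.34 in young samples. Old males read 7.68 at the lowest, 8.15 at the median and 9.32 at the highest, and young males read 8.05, 8.23, 8.22, 7.92 and 8.03. The highest old male values, 9.32 and 9.08, belonged to old males 2 and 4, both divergent, and other old males lay below all young males. Old males averaged 8.36 ± 0.68 and young males 8.09 ± 0.13, with a log2 difference of 0.27 ± 0.34 (95% interval -0.43 to 0.98). Without the divergent samples it was -0.15, so the direction in males rested on those samples. Old females read 7.93, 9.41, 8.41, 7.03 and 8.31, and young females 7.92, 8.69, 8.39, 8.03 and 8.25. Both the highest and the lowest female value came from old animals, and the log2 difference was -0.04 ± 0.35 (95% interval -0.78 to 0.70). Leaving out old female 5 turned it to 0.26, and leaving out the divergent samples gave -0.43.

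NOTCH4, known mainly from endothelium, also varied more among the old samples when all samples were counted. The SD without the divergent samples was 0.59 in old and 0.43 in young males. In females it was then 0.13 in old and 0.24 in young samples, the reverse order. Old males read 6.63 at the lowest, 7.80 at the median and 9.51 at the highest, and young males read 8.09, 7.79, 7.01, 8.0003 and 7.44. Of the 6 old males 2 lay above and 1 below all young males, for a log2 difference of 0.25 ± 0.41 (95% interval -0.61 to 1.10). It was -0.19 without the divergent samples. The highest NOTCH4 value, 9.51, belonged to old male 4, which also had the highest endothelial marker sum of the old males. Over 13 tested of 15 listed endothelial markers that sum was 10687 to 21012 in old males and 11033 to 12887 in young males, and 11 of 13 had means above those of the young males, with 0 called. Among the other 15 samples 6 of 13 did, with a median log2 difference of -0.08. The part of these markers in the NOTCH4 values was not tested. Old females read 7.75, 9.24, 8.02, 7.91 and 7.09 and young females 7.44, 8.01, 7.99, 7.72 and 7.80, a log2 difference of 0.21 ± 0.43 (95% interval -0.69 to 1.10).

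NOTCH2, a receptor of several vascular cell types including smooth muscle, had 4 probe sets. On 202443_x_at, where the x in the name marks probes that may also read other sequences, old males averaged 10.36 ± 0.33 and young males 10.62 ± 0.20, a log2 difference of -0.26 ± 0.25 (95% interval -0.77 to 0.25), and -0.13 without the divergent samples. Old females averaged 10.21 ± 0.71 and young females 10.56 ± 0.20, a difference of -0.35 ± 0.26 (95% interval -0.88 to 0.18), and 0.05 without the divergent samples. The lowest of the female values, 9.01, was again that of old female 6. On 210756_s_at the difference was -0.74 ± 0.49 in males (95% interval -1.76 to 0.28), the largest in size of any tested member there, and 0.06 ± 0.51 in females. Its old males read 6.31 at the lowest, 9.004 at the median and 9.56 at the highest, and its young males 8.10, 9.66, 9.33, 9.81 and 9.22. Old male 2 was alone at 6.31, and without the divergent samples the male difference was -0.28. On 212377_s_at the difference was -0.03 ± 0.37 in males and -0.57 ± 0.39 in females (95% interval -1.38 to 0.25), the female value being -0.31 without the divergent samples. The fourth, 202445_s_at, lay below the filter, with means of 7.01 ± 0.55 in old and 6.75 ± 1.02 in young males and of 7.35 ± 0.55 in old and 7.13 ± 0.50 in young females.

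The ligand JAG1, which activates Notch receptors on neighbouring smooth muscle cells, gave the only unadjusted p below 0.05 of any tested member in either sex. On 209099_x_at old females read 12.31, 10.77, 11.58, 11.91 and 9.79, and young females read 12.26, 12.28, 11.67, 11.96 and 12.10. The old female values overlapped the young ones, with 1 of 5 above and 3 of 5 below all of them. Their means were 11.27 ± 1.01 and 12.06 ± 0.25 (SD, n = 5 each), a log2 difference of -0.78 ± 0.37 (95% interval -1.55 to -0.02, limma adjusted p = 0.9996). The lowest readings, 9.79 and 10.77, were those of old females 6 and 2, both divergent. Without the divergent samples the difference was -0.22 ± 0.21 (95% interval -0.67 to 0.23, limma adjusted p = 0.943, 3 old and 4 young females). Among the divergent samples alone, old females averaged 10.28 (n = 2) and the 1 young female read 11.67. Smooth muscle markers lay on the same side in these samples: 10 of 11 had a lower mean in old females, with 0 called, and their sum was 59923 to 199883 in old and 91272 to 204453 in young females. Of 6 tested mural cell markers, of 8 listed, 5 had a lower mean in old females, with sums of 8526 to 26657 in old and 8621 to 27141 in young females. Old female 6 also stood apart in its 3 tested lymphocyte markers, of 7 listed, whose sum of 6240 compared with 366 to 987 in all other samples. Without the divergent samples, 2 of 11 smooth muscle and 3 of 6 mural cell markers had a higher mean in old females. The part of these markers in the JAG1 value was not tested.

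In males the same JAG1 probe set read 10.81 at the lowest, 12.05 at the median and 12.63 at the highest in old animals, and 11.99, 12.15, 12.06, 12.48 and 12.57 in young ones. The log2 difference was -0.31 ± 0.35 (95% interval -1.04 to 0.43), and -0.05 without the divergent samples. The other JAG1 probe sets gave smaller values or ones of the opposite sign in females. On 216268_s_at the log2 difference was 0.04 ± 0.24 in males and 0.03 ± 0.25 in females, and on 209098_s_at it was -0.23 ± 0.36 in males and 0.37 ± 0.38 in females. These were 0.11 in males and 0.25 in females on 216268_s_at, and -0.09 and 0.53 on 209098_s_at, without the divergent samples. The untested 209097_s_at averaged 6.25 ± 0.45 in old and 5.92 ± 0.63 in young males, and 6.14 ± 0.59 in old and 5.75 ± 0.86 in young females.

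JAG2, the other Jagged ligand measured, had 2 tested probe sets. On 32137_at old females read 8.38, 9.04, 8.60, 5.69 and 8.11, and young females read 8.20, 8.76, 8.80, 8.13 and 8.75. A single sample, old female 5, lay far below the rest, and 1 old female lay above all young ones. The log2 difference was -0.57 ± 0.43 in females (95% interval -1.47 to 0.34), 0.0037 without old female 5 and -0.90 without the divergent samples. It was 0.20 ± 0.42 in males, and 0.0020 without the divergent samples. On 209784_s_at the difference was 0.30 ± 0.30 in females and 0.10 ± 0.29 in males, against 0.13 and -0.23 without the divergent samples. Here old female 5, at 7.73, was the lowest old female but within the range of the young ones, 7.67 to 8.29.

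HES1, a repressor switched on directly by Notch in many cell types, had the highest old-minus-young difference of the tested members in males. On 203394_s_at old males read 7.91 at the lowest, 8.85 at the median and 10.57 at the highest, and young males read 8.58, 8.47, 8.28, 8.72 and 8.50. Old male 4, at 10.57, stood above all other samples, while old male 3, at 7.91, was the lowest of all. Old males averaged 8.95 ± 0.88 and young males 8.51 ± 0.16, a log2 difference of 0.44 ± 0.30 (95% interval -0.19 to 1.07), and 0.14 without the divergent samples. It was 0.11 without old male 4 alone and 0.65 without old male 3 alone, where the unadjusted limma p was below 0.05 (adjusted p = 0.999). In females the difference was 0.28 ± 0.32. On 203395_s_at old male 4 was again the highest, at 9.74, and the male difference was 0.00 ± 0.31, with 0.30 ± 0.32 in females, and -0.11 and 0.06 without the divergent samples. Adipocyte markers were highest in old male 4 as well: the sum over 7 tested of 10 listed was 3475 to 47988 in old and 2204 to 47251 in young males, and 7 of 7 had means above those of the young males, with 0 called. Without the divergent samples 7 of 7 also had higher means in old males, with a median log2 difference of 1.75 (1.53 with all samples). With all samples, 3 of the 7 had an unadjusted limma p below 0.05, against 3.36% of all probe sets. Young male 1, with a sum of 47251, read 8.58 on 203394_s_at, within the range of the other young males. Old male 2 had a mean log2 level of 11.80 over these markers, against 12.19 in old male 4, and read 8.59. Among females, 4 of 7 lay higher with age, with a median log2 difference of 0.10. That count was 0 of 7 without the divergent samples, with a median of -0.66. The female HES1 difference on 203394_s_at was 0.28 with all samples and 0.21 without the divergent ones. The part of the adipocyte markers in the HES1 values was not tested. The third HES1 probe set, 203393_at, lay below the filter, between 4.35 and 5.79 in all samples.

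HEY1, a repressor of the related HEY family that acts in arterial endothelium and smooth muscle, had lower means in old animals of both sexes and did not pass the test. On 44783_s_at old males averaged 9.64 ± 0.69 and young males 9.76 ± 0.62, a log2 difference of -0.13 ± 0.39 (95% interval -0.95 to 0.70). Old females averaged 9.61 ± 0.72 and young females 9.88 ± 0.76, a difference of -0.27 ± 0.41. Without the divergent samples the differences were -0.33 in males and -0.46 in females. Averaged over the sexes, the difference in those 15 samples was -0.40 ± 0.19 (limma adjusted p = 0.730), the only member there at an unadjusted p below 0.05, against 6.84% of all probe sets. Old males in that subset read 9.11, 9.04, 9.51 and 9.17, and young males 9.79, 9.53, 9.91 and 8.94. Old females read 9.16, 9.43 and 8.83, and young females 9.25, 10.34, 9.54 and 9.28. The groups overlapped in both sexes. The second HEY1 probe set, 218839_at, lay below the filter, at 6.62 ± 0.81 in old and 7.18 ± 0.62 in young males, and at 6.41 ± 1.12 in old and 6.70 ± 0.71 in young females. Its differences without the divergent samples were -0.28 in males, 0.49 in females and 0.11 over both sexes, so the female sign was opposite to that of 44783_s_at.

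HEYL, a Notch target known from smooth muscle, was read by a probe set below the filter and was not tested. Old males read 5.46 at the lowest, 7.23 at the median and 8.18 at the highest, and young males 5.87, 7.80, 6.46, 7.73 and 7.46. Old females read 8.44, 5.35, 5.78, 6.87 and 5.91, and young females 7.69, 6.9996, 5.95, 8.19 and 6.35. The spread within each group, with SDs of 0.86 to 1.23, exceeded the differences between the group means.

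**Figure D2:**
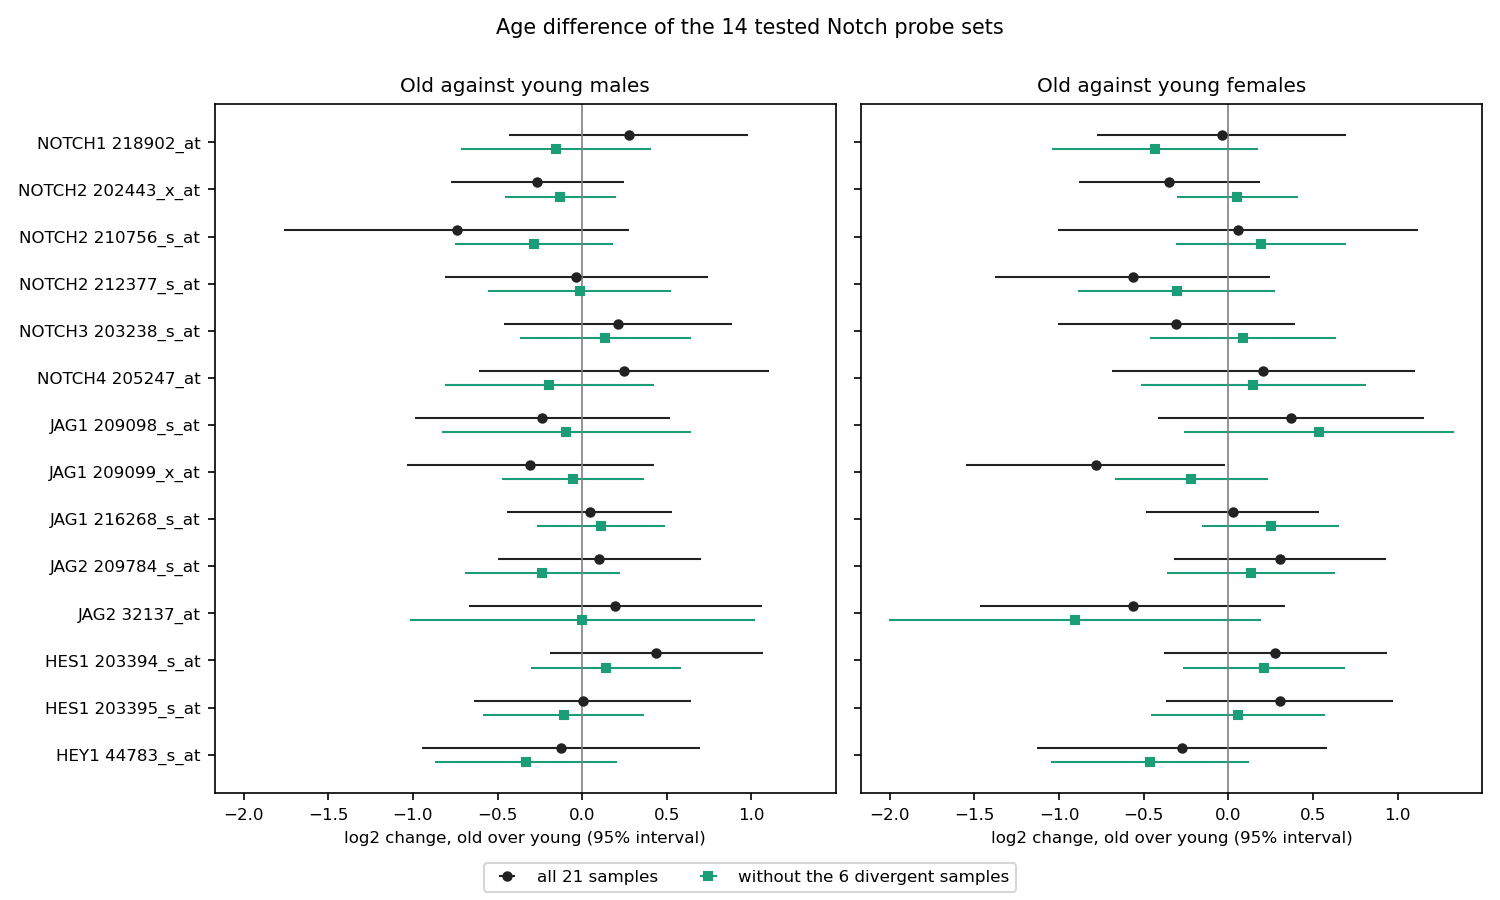
Old-minus-young log2 difference of the 14 tested Notch probe sets (horizontal axis) in males and in females, with 95% intervals, for all 21 samples (black circles) and without the 6 divergent samples (green squares). With all samples, each interval crosses 0 except that of JAG1 209099_x_at in females, which reaches from -1.55 to -0.02.

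Averaged over both sexes, 0 of 14 members passed in limma and 1, JAG1 209099_x_at, had an unadjusted p below 0.05, against 0% and 4.38% of all probe sets. The lowest adjusted p of the members was 0.984, and the differences ran from -0.55 to 0.36. The age effects of males and females were compared by an interaction term, for which 0 of 14 passed and 0 had an unadjusted limma p below 0.05 (1.94% of all probe sets did). No member was thus shown to differ between the sexes in its age effect. Males against females gave 0 calls and 0 unadjusted limma p-values below 0.05 for the 14 members in old animals, and the same in young animals. Over all probe sets 0.027% passed at either age, and 4.08% in old and 1.4% in young animals had an unadjusted p below 0.05.

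A larger contrast ran between the divergent samples and the others. The values of all tested probe sets chose these samples, so the comparison is a description. Of the 14 tested members 3 did not overlap between the 6 divergent and the 15 other samples, against 3.9% of all tested probe sets. NOTCH2 on 210756_s_at read 6.31 to 8.61 in the divergent samples and 8.81 to 9.81 in the others. On 212377_s_at it read 7.63 to 8.21 in the divergent samples and 8.32 to 9.70 in the others. JAG2 on 209784_s_at read 8.18 to 9.03 in the divergent samples and 7.21 to 8.16 in the others. Thus both NOTCH2 probe sets lay lower and the JAG2 one higher in the divergent samples.

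Probe sets of 1 gene went opposite ways in this contrast. For NOTCH2 the mean differences, divergent minus others, were -1.55, -1.19 and -0.53 on the tested probe sets and 1.07 on the untested 202445_s_at. For HEY1 they were 1.16 on 44783_s_at, with 9.96 to 10.99 in the divergent samples and 8.83 to 10.34 in the others, and -0.92 on 218839_at. HEYL was lower by this measure, with a difference of -1.63 and values of 5.35 to 5.95 in the divergent samples and 5.78 to 8.44 in the others. JAG1 on 209099_x_at differed by -1.04, NOTCH4 by 0.78 and NOTCH1 by 0.73. Several of these differences exceeded every age difference of the members, and both the hybridisation controls, which did not overlap, and the actin ratio, which did, moved with them. Some marker sums differed as well, with overlap. The adipocyte sum was 12664 to 47988 (median 39896) in the divergent samples and 2204 to 27136 (median 7535) in the others. The mural cell sum had a median of 12563 against 22816, and the endothelial sum one of 12310 against 12151. The part of the controls, the actin ratio or the markers was not tested.

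**Figure D3:**
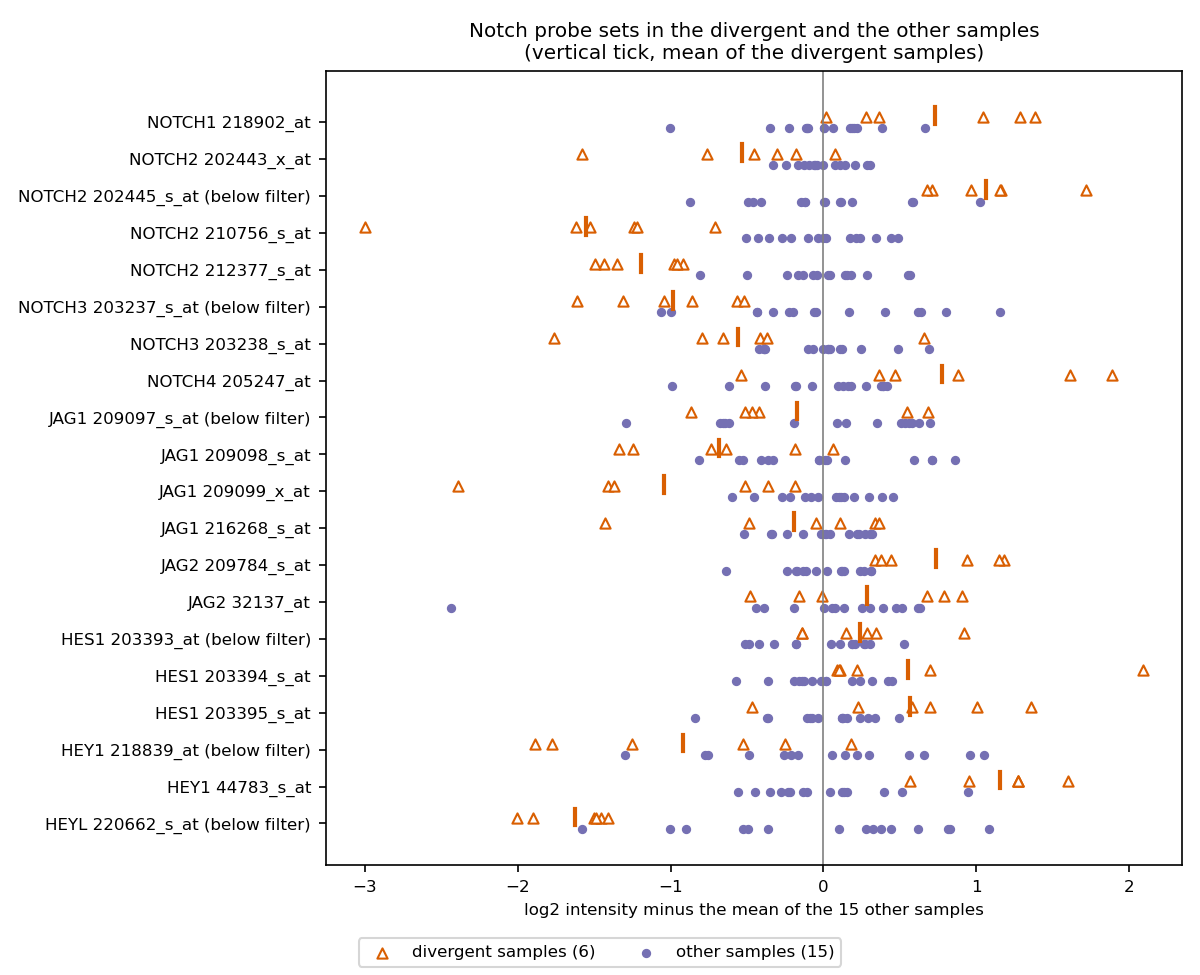
Normalised log2 intensity of each Notch probe set in the 6 divergent and the 15 other samples, drawn relative to the mean of the 15 others. NOTCH2 210756_s_at and 212377_s_at lie wholly below and JAG2 209784_s_at wholly above the others.

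Probe sets that carry the same gene symbol agreed only in part over the 15 other samples. Pearson's r was -0.18 to 0.40 among those of NOTCH2, 0.50 for NOTCH3, -0.01 to 0.53 among those of JAG1, 0.29 for JAG2, -0.25 to 0.35 among those of HES1 and -0.004 for HEY1. Counting tested and untested probe sets, the sign of the age difference was not shared among those of NOTCH2, NOTCH3 and JAG1 in either sex, nor between those of JAG2 in females. Gene-level statements therefore hold for the named probe set only.

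Whether receptors, ligands and targets varied together was asked over the 15 other samples, with 1 probe set per gene and all 28 pairs of 8 genes. By a two-sided permutation test 0 of 28 pairs passed after adjustment, and 3 had an unadjusted p below 0.05. NOTCH1 and JAG2 had r = 0.79 (permutation p = 0.00429, adjusted p = 0.120) and Spearman's rho of 0.54 (permutation p = 0.0402, adjusted p = 0.475). Old female 5 had the lowest value of both genes, 7.03 for NOTCH1 and 5.69 for JAG2. Without it r was 0.42, and without it and young female 2, the samples farthest from the NOTCH1 median, r was 0.24. The relation thus rested mainly on old female 5. Leaving out any other single sample, a check chosen after seeing the data, left r between 0.78 and 0.83. NOTCH1 and HEY1 had r = 0.58 (permutation p = 0.0298, adjusted p = 0.417), and r = 0.04 without old female 5 and young female 2. It was 0.39 without young female 2 alone and 0.47 without old female 5 alone. NOTCH4 and JAG1 had r = -0.52 (permutation p = 0.0465, adjusted p = 0.434) and -0.53 without the 2 samples farthest from the median. It was -0.35 without old male 6 alone. The smooth muscle receptor and the targets gave r = 0.24 for NOTCH3 with HES1 (permutation p = 0.378) and -0.33 for NOTCH3 with HEY1, and JAG1 with NOTCH3 gave 0.06.

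**Figure D4:**
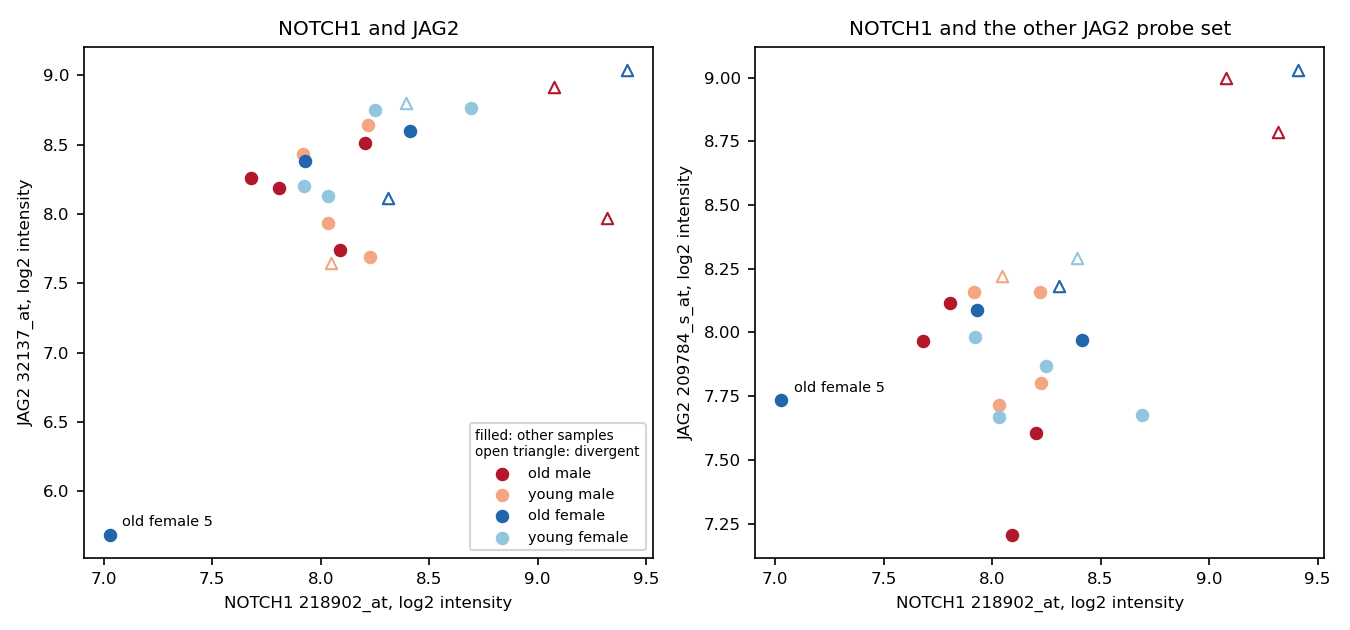
Normalised log2 intensity of NOTCH1 (horizontal) against each of the JAG2 probe sets (vertical) by sample, with open triangles for the 6 divergent samples. Old female 5 lies alone at 7.03 for NOTCH1 and 5.69 for JAG2 on 32137_at, away from the other points, and at 7.73 on 209784_s_at, within the vertical range of the others.

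The genes whose pattern was most like each member's were taken from 6942 others by Pearson's r over all 21 samples, and r over the 15 is given beside it as a description. For NOTCH3 they were PDE8A (0.87 over 21 and 0.64 over 15), PRAF2 (0.78 and 0.65) and DRAP1 (0.77 and 0.56). NOTCH1 was most like HSD17B7 (0.82 and 0.74), TMT1A (0.80 and 0.58) and PEG3 (0.80 and 0.77). For NOTCH2 the likeness to MCM9, GALNT2 and CTNNA1, 0.85 each over 21, was 0.24, 0.13 and 0.57 over 15. NOTCH4 was nearest to TARBP2 (0.77 and 0.38), NR1H3 (0.77 and 0.58) and ARHGEF15 (0.76 and 0.30).

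Among the ligands, JAG1 was most like PSMC3 (0.89 over 21 and 0.65 over 15), APIP (0.87 and 0.19) and HACD3 (0.87 and 0.22). JAG2 was nearest to LOC155060 and LAS1L (0.78 and 0.93 each) and BICRA (0.77 and 0.80). HES1 lay closest to TSPAN7 (0.86 and 0.67), SNRK (0.79 and 0.56) and NDUFV1 (0.78 and 0.23). HEY1 had HIPK2 (0.85 and 0.48), WBP1L (0.84 and 0.50) and DNAH3 (0.82 and 0.24). Without the divergent samples r was lower for each of these genes except those of JAG2. For JAG2 the 15 samples include old female 5, which at 5.69 lay far below the rest, and r without it is not given here.

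The rest of the pathway was read from a list of 56 other genes, of which 40 were on the array under a symbol of their own and 33 were tested. In limma 0 of 33 passed in males, females, both sexes or the interaction. In males 10 had a higher and 23 a lower mean in old animals, with a median log2 difference of -0.11, and in females 15 were higher and 18 lower, with a median of -0.02. Over all 6943 genes the medians were -0.01 and -0.02. An unadjusted p below 0.05 was reached by 1 of 33 in males, 1 in females, 0 over both sexes and 1 in the interaction, where 3.36%, 2.84%, 4.38% and 1.94% of all tested probe sets reached it, so these counts lay near the background. By role, the 8 tested genes of receptor cleavage were split 4 to 4 in males and had 3 higher and 5 lower means in females. The 4 tested enzymes of receptor glycosylation had 1 higher and 3 lower in males and 0 higher and 4 lower in females. The 7 genes of the nuclear complex and its co-activators had 3 higher and 4 lower in males and 6 higher and 1 lower in females.

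RBPJ, the DNA-binding protein through which the cleaved receptors act, was the gene of this list with the smallest unadjusted p in females and in the interaction. On 211974_x_at old males read 11.89 at the lowest, 12.12 at the median and 12.70 at the highest, and young males read 12.43, 12.45, 12.36, 12.28 and 12.24. Old females read 12.23, 12.26, 12.31, 12.63 and 12.88, and young females read 12.25, 12.35, 12.08, 11.99 and 11.97. Thus 5 of 6 old males lay below all young males, and 2 of 5 old females lay above all young females. The log2 difference was -0.19 ± 0.15 in males and 0.33 ± 0.16 in females (limma adjusted p = 0.9996). The male effect minus the female effect was -0.52 ± 0.22 (limma interaction, adjusted p = 0.9999), and -0.54 ± 0.19 without the divergent samples (adjusted p = 0.999), with an unadjusted p below 0.05 in both. In those samples all 4 old males lay below all 4 young males (log2 difference -0.29 ± 0.13, limma adjusted p = 0.818), as did 2.43% of all probe sets in that direction. The other tested RBPJ probe set, 207785_s_at, gave -0.23 ± 0.27 in males and -0.15 ± 0.28 in females, with an interaction of -0.08 ± 0.39, so the opposite directions of the sexes were seen on 1 of 2 probe sets, the one whose name marks possible cross-reading.

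Other named genes of the pathway did not pass either. In males CREBBP, a co-activator acetyltransferase, had a log2 difference of -0.46 ± 0.21 (limma adjusted p = 0.9999) and -0.22 ± 0.18 without the divergent samples. NEURL1, a ubiquitin ligase that acts on Notch ligands, had -0.52 ± 0.26 in males (-0.14 without the divergent samples), and MFAP5, a microfibril protein that can bind JAG1, had -0.65 ± 0.42. In females FBXW7, which targets the intracellular receptor for breakdown, had 0.34 ± 0.24 (-0.019 without the divergent samples), DTX4, a ubiquitin ligase of the Deltex family, had 0.31 ± 0.25, and FURIN, the protease that matures the receptors, had -0.31 ± 0.25. Over both sexes HEY2, a HEY repressor of arteries, had -0.50 ± 0.37 (-0.27 without the divergent samples) and TLE3, a co-repressor, had -0.39 ± 0.22. The other tested TLE3 probe sets gave -0.06 and 0.06 in males and 0.10 and 0.04 in females, against -0.38 and -0.39 on that one. There old female 5 read 6.82, against 8.61 to 8.92 in the other old females. The interaction estimates of FURIN, CREBBP and FBXW7 were 0.60 ± 0.34, -0.48 ± 0.30 and -0.53 ± 0.33. They were 0.49, -0.16 and -0.10 without the divergent samples. ADAM10, the protease of the first receptor cut, had 0.31 ± 0.27 in males and 0.05 ± 0.28 in females, against -0.0090 and 0.27 without the divergent samples. MFNG, a fringe glycosyltransferase, had 0.02 ± 0.32 in males and -0.02 ± 0.34 in females, against -0.06 and -0.16 without them. LFNG lay below the filter, and DLL4 and HES4 were not analysed here for want of a probe set with that single symbol.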

How the data were processed

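Aortic total RNA was copied to DNA and transcribed into biotin-labelled RNA, per the labels' protocols. The authors deposited linear intensity values, 1 per probe set and array, for 22277 probe sets. The summary of probes into probe sets followed a method not given in the sources used here. The middle part of the deposited intensities averaged 500.1 to 500.2 on every array, with array medians of 144.2 to 264.1.

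Here 62 control probe sets were left out, the deposited values were turned into log2(intensity + 16) and quantile normalised, and the 11108 of 22215 probe sets at or above the median mean (log2 7.60) were tested. The pseudocount understates changes of dim probe sets. In the platform annotation 19064 probe sets carried a single symbol, 1043 several and 2108 none.

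All 276 array pairs were compared. The averaged pairs differed with an SD of 0.383 or less (log2), any other pair with 0.427 or more. A mean per group was fitted with limma 3.58.1 (R 4.3.3, empirical Bayes with trend) and each contrast's p-values received a Benjamini-Hochberg adjustment, with a threshold of 0.05. Errors are SDs of samples or SEs of the model. The fit was tested on simulated data. Correlations used 100000 permutations.

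Members, marker lists and the pathway list were chosen with earlier results of these data known. All member probe sets are named. Of the pathway list, the 4 genes with the smallest p per age contrast and a fixed few are named (1 is not reported here), with the probe set of the highest mean per gene, and 3 likest genes per member. Sequences are not shown here. The number of arrays limits the precision. Alternatives were scaling, filter, pseudocount, array weights, the actin ratio as a covariate, a replicate block, and leaving out samples.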

Additional observations from a re-analysis of the deposited data

Results flagged for a closer look

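In 4 of the 80 combinations of a member probe set and a group, 1 sample lay far from the others by Dixon's criterion, which chance alone meets in about 1 of 20 groups. NOTCH2 on 212377_s_at read 7.63 in young male 1, against 9.06 to 9.29 in the other young males. NOTCH3 on 203237_s_at, below the filter, read 5.30 in the same sample, against 6.38 to 6.78 in the others. JAG1 on 209098_s_at read 7.12 in old male 4, against 8.34 to 8.43 in the other old males. JAG2 on 32137_at read 5.69 in old female 5, against 8.11 to 9.04 in the other old females. Of these samples, young male 1 and old male 4 are divergent and old female 5 is not.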

How the results depend on the processing

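The count of Notch probe sets called was 0 in every contrast under each alternative run. With the actin ratio as a covariate, 3 of 14 had an unadjusted limma p below 0.05 in the interaction, as did 577 of 11108 probe sets. These were NOTCH2 210756_s_at, JAG1 209098_s_at and HEY1 44783_s_at. The lowest limma p of them was 0.0054, for NOTCH2 (adjusted p = 0.920). In the age contrasts of that run NOTCH2 210756_s_at had such an unadjusted p in males, as did 804 of 11108 probe sets. JAG1 209098_s_at and HEY1 44783_s_at had one in females (433 of 11108), and JAG1 209099_x_at over both sexes (626). With the divergent samples as a block, JAG1 209099_x_at and HEY1 44783_s_at had one in females (409) and over both sexes (613). NOTCH2 210756_s_at had one in the interaction there (368). Over all probe sets, the 2 calls in males became 0 with median-centred arrays, 0 with no filter, 0 with a pseudocount of 64, 1 with the actin ratio as a covariate and 25 with array weights, and ranged from 0 to 2 when 1 sample was left out. Over both sexes the 0 calls became 1 without the divergent samples and 1 with a replicate block. With no filter the 3 calls of males against females became 6 in old and 5 in young animals. The replicate block left 2 calls in males. Samples of the same number correlated at a median of 0.06 (14 of 30 pairs over 0.1), so the numbers were not taken to pair them. Of the 28 member pairs, 6 correlations were called over all 21 samples and 1, NOTCH1 with JAG2 (r = 0.76, permutation adjusted p = 0.0493), with group means taken off. The run over 21 samples pools the divergent samples with the others, from which they stood apart, so its calls were not read as relations. For NOTCH1 with JAG2, Spearman's rho with group means taken off was 0.58 (permutation adjusted p = 0.617). Its r was 0.34 without the 2 samples farthest from the NOTCH1 median.

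None of the reversed differences was called. In males NOTCH1 was -0.15 without the divergent samples and -0.091 with array weights, NOTCH4 was -0.19 and -0.14 under these settings and -0.072 with a replicate block, and HEY1 was 0.10 with the actin ratio. In females NOTCH2 was 0.053 and NOTCH3 0.086 without the divergent samples, and NOTCH4 was -0.066 with the actin ratio. With 1 sample left out, the female range was -0.34 to 0.26 for NOTCH1 (above 0 without old female 1 or 5 or young female 2), -0.53 to 0.035 for NOTCH3 (old female 6), -0.10 to 0.44 for NOTCH4 (below 0 without old female 2), -0.83 to 0.0037 for JAG2 (old female 5) and -0.54 to 0.0031 for HEY1 (young female 3). In males it was -0.072 to 0.50 for NOTCH4 (old male 4) and -0.33 to 0.10 for HEY1 (young male 1). JAG1 209099_x_at in females ranged from -1.04 to -0.22 over 32 settings (-0.41 without old female 6), with an unadjusted limma p below 0.05 in 19 of them. Many of the 19 left out a male sample, which does not change the female values. That p was not below 0.05 with all 24 arrays counted, median-centred arrays, array weights, the actin ratio, a replicate block or no divergent samples. Nor was it without old female 2 or 6, young female 1, 2, 5 or 6, or young male 2. The cause of the reversed differences was not tested.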
